A study of Mus musculus with 8 samples.

Results

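The uterus of ovariectomized mice given bisphenol A (BPA) together with Korean red ginseng (KRG) was compared with the uterus of ovariectomized controls, and each ratio was set beside the sum of the ratios of BPA alone and of KRG alone to the same control. The comparison uses 4 of the 8 libraries of the series, 1 for each of the 4 uterus groups, and the 9198 of 23282 gene rows whose mean over these 4 libraries was at least 10 CPM (read counts scaled to a common library size). All animals were female CD-1 mice, an outbred stock, ovariectomized at 6 weeks of age and rested for 1 week. The combined group received BPA at 200 mg/kg/day and KRG at 1.2 g/kg/day, the BPA group BPA alone at 200 mg/kg/day, the KRG group KRG alone at 1.2 g/kg/day, and the control group neither, with dosing by mouth for 7 days. How many animals went into a library is not stated in the labels, and neither is whether a treatment's liver and uterus were taken from the same mice. The series asks whether ginseng alters the influence of BPA.

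The uterus is a muscular tube lined by a simple epithelium that forms glands, and estrogen acting through its receptor drives growth and secretion of that lining. Ovariectomy removes the main source of the hormone, so that estrogen-induced genes are normally low. BPA, a building block of polycarbonate plastics, binds estrogen receptors weakly and is cleared mainly by conjugation, and Korean red ginseng is steamed and dried Panax ginseng root.

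RNA was read by QuantSeq, a method that primes at the poly(A) tail and so counts transcripts without regard to their length. The 4 uterus libraries held 12990417 to 14797515 counts, and Rn45s, the ribosomal RNA precursor, took 11.3% of the combined library against 8.62% of control, with BPA and KRG at 9.95% and 10.7%. With 1 library per group there was no replicate check and no test, and a gene is called higher or lower here when it differed at least 2-fold on the log2(CPM + 1) scale. Fold intervals (95%, exact Clopper-Pearson on the counts) cover counting error only and compare libraries, not treatments. All 19 smooth muscle genes and all 19 simple epithelium genes listed were above the expression limit, as were Esr1 and Pgr. Of 14 Hox genes 9 were above it, and of 9 gland genes present in the files 5 were. The limit is a mean over the 4 libraries, so it checks the uterus label of no single library. Bladder epithelium also expresses several of the simple epithelium genes, so these do not tell uterus from bladder. Genes that are abundant in bladder, skeletal muscle and liver also differed between the libraries, and their values are given with the results below. In whole tissue, a change in the number of cells of a type and a change in RNA per cell cannot be told apart.

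Between the combined and control libraries, 498 genes were at least 2-fold higher (5.41% of those measured) and 313 at least 2-fold lower (3.4%), around a median log2 ratio of 0.01. The 5th and 95th percentiles of the ratio were -0.84 and 1.05. BPA alone gave 255 genes higher (2.77%) and 170 lower (1.85%), and KRG alone 268 higher (2.91%) and 110 lower (1.2%). The 3 comparisons share the control library. At the expression limit, Stk35 and Lnp lay just inside with mean levels of 10.01 and 10.0005 CPM, and Dock10 and Gm6793 lay just outside with 9.994 and 9.992 CPM. Their log2 ratios of combined to control were -0.20, -0.54, -0.08 and -0.02.

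The combined ratio exceeded the sum of the single ratios by at least 1 on the log2 scale in 364 genes (3.96%) and lay below it by at least 1 in 509 (5.53%). The control level enters the sum at both terms and the combined ratio once, so that an unusual control value moves the deviation too. The higher and lower genes that follow were chosen by the combined ratio, which is itself a part of the deviation. How many of them lay above or below the sum, or were highest or lowest in the combined library, was thus partly set by that choice. Among the 498 higher genes, 301 (60.4%) lay within 1 of the sum, 181 (36.3%) above it and 16 below it. The median log2 ratios of these genes were 1.58 in the combined library, 0.94 with BPA and -0.05 with KRG, which gives a median sum of 0.97. The combined library was also the highest of the 4 for 473 of them. Among the 313 lower genes, 170 (54.3%) lay within 1 of the sum, 121 (38.7%) below it and 22 above it. Their medians were -1.44 in the combined library, -0.87 with BPA and -0.12 with KRG, and the combined library was the lowest of the 4 for 270.

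**Figure D1:**
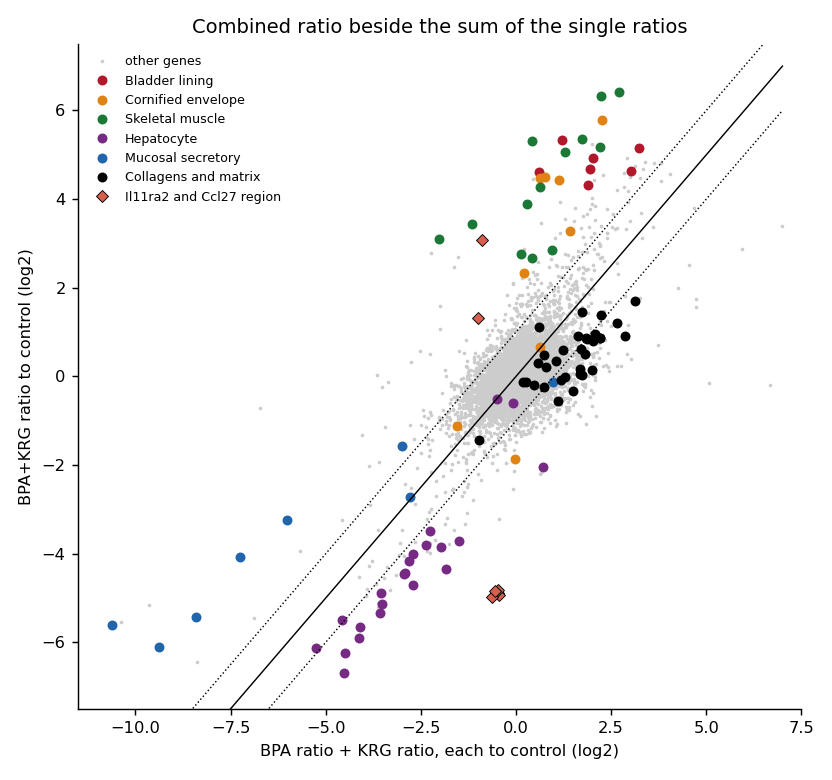
Each point is a gene, with the sum of the BPA and KRG log2 ratios to control on the x axis and the log2 ratio of the combined library to control on the y axis. The solid line marks equality and the dotted lines a deviation of 1. Skeletal muscle and bladder lining genes lie above the band, hepatocyte and most collagen genes lie on or below the line, and the Il11ra2 and Ccl27 genes fall far to both sides. Both axes contain the control library.

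Genes of the bladder lining stood among the largest increases. Uroplakins are membrane proteins that form the plaques on the surface of umbrella cells, the top layer of the bladder epithelium. Of the 9 bladder lining genes listed, 7 were measured and all 7 were higher in the combined library, with a median log2 ratio of 4.68 against 4.05 with BPA and -2.10 with KRG. Their CPM summed to 10479 in the combined library, 5727 with BPA, 74.8 with KRG and 337 in control. None of the listed genes was at 0 counts in any of the 4 libraries. Here and below, counts of list members stand beside 5.41% higher and 3.4% lower over all genes. A member that passed the expression limit only through the combined or control library was largely bound to be called. Such counts are partly set by the limit.

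Upk3a, a uroplakin that pairs with Upk1b, stood at 2705 CPM in the combined library, 1216 with BPA, 7.57 with KRG and 66.3 in control, a 40.8-fold difference of combined from control (interval 38.2 to 43.6). Upk1a, a tetraspanin that pairs with Upk2, stood at 3194 CPM in the combined library, 1609.9 with BPA, 46.2 with KRG and 89.3 in control. Both were high in the libraries with BPA and lowest with KRG alone. Upk1b was at 597 CPM in the combined library, 386 with BPA, 4.44 with KRG and 22.3 in control, and Upk2 at 276, 161, 1.07 and 8.04 CPM in the same groups. The same order, combined, BPA, control, KRG, held for these 4 uroplakins. Because KRG alone lay below control, the sums had a median of 1.96 and every one of the 7 genes lay above its sum, Upk3a by 4.13. Whether bladder tissue entered a library was not tested.

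Cornified envelope genes, which encode the cross-linked protein layer of squamous cells, followed the same order in part. Of 28 listed genes present in the files 9 were measured, 6 of them higher and 2 lower in the combined library, with a median log2 ratio of 3.28. Ivl, the envelope scaffold involucrin, was at 624 CPM in the combined library, 306 with BPA, 0.987 with KRG and 10.3 in control, 60.6-fold higher in the combined library (51.3 to 72.0). Sprr1a, a small proline-rich envelope precursor, was at 1164 CPM in the combined library, 666 with BPA, 8.64 with KRG and 53.3 in control, 21.8-fold higher (20.3 to 23.5). Sprr2a2 and Sprr2a3 were 23.4-fold and 23.6-fold higher, but 199 of the last 200 bases of their GENCODE transcripts are identical and their counts cannot be separated with certainty. The 2 lower members, Sbsn and Sprr2f, chosen after their values were seen, stood at 6.94 and 40.5 CPM in the combined library and 27.9 and 88.7 CPM in control.

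The promoter window of Sprr1a (RefSeq, GRCm38.p6, chr3:92485882-92486131, minus strand) is shown because this gene carries the highest level of the cornified group, with capitals at the match to the antioxidant response element letters TGACNNNGC, here on the opposite strand.

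Sprr1a: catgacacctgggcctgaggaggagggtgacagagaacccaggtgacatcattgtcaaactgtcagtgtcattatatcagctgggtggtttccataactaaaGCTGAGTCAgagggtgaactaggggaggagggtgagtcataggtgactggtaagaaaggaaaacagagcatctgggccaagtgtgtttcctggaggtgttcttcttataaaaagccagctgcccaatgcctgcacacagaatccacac

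The capitals also contain TGAGTCA, the letters of an AP-1 site, a motif chosen after this window was seen. On both strands, TGACNNNGC occurs in 12.4% of 32851 mouse promoter windows and in 11.5% of the 208 windows found for 170 of the 213 named genes. TGAGTCA occurs in 5.2% and 9.62%. The full palindromic estrogen response element, searched without mismatches, occurs in 0.07% of all windows and in 0 of the 208, and GCGTG, the core bound by the Ah receptor, in 32.4% and 33.7%. A match is a run of letters and says nothing about binding.

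The gasdermin C genes, which encode relatives of pore-forming proteins of epithelia, were grouped after their values were seen. Gsdmc2 was at 278 CPM in the combined library, 203 with BPA, 0.740 with KRG and 39.8 in control. Gsdmc and Gsdmc3 were at 100.2 and 110 CPM in the combined library, against 14.7 and 18.9 CPM in control, and both were under 1 CPM with KRG. All 3 lie on chromosome 15, and all 3 lay more than 4 above the sum, since KRG alone was far below control. In the last 200 bases of their transcripts, 191 bases are identical between Gsdmc2 and Gsdmc3, so these 2 are uncertain as separate genes.

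Basal squamous keratinocyte genes were mixed, with 3 of 5 measured genes higher and 1 lower. Trp63, the master regulator of stratified epithelia, was at 25.6 CPM in the combined library, 16.3 with BPA, 4.03 with KRG and 6.65 in control. Krt15 and Col17a1, a keratin and a hemidesmosome collagen of basal cells, were also higher, at 1070.0 and 29.0 CPM in the combined library against 358 and 8.70 CPM in control. Krt14, another basal keratin, went the other way and was at 3.40 CPM in the combined library, 31.9 with BPA, 31.8 with KRG and 59.3 in control. With no expression limit, 10 genes of this list had a median log2 ratio of -0.66, against 1.58 for the 5 measured.

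Simple epithelium markers were higher in 9 of 19 and lower in 1, Wnt7a, which was chosen after its value was seen and was at 18.0 CPM in the combined library and 49.3 in control. Krt7, a keratin of simple and transitional epithelia, was at 400.4 CPM in the combined library, 245 with BPA, 39.7 with KRG and 34.3 in control, 11.7-fold higher (10.6 to 12.9). Cldn4, a tight junction protein, was 5.53-fold higher and Prom2, a protein of membrane protrusions, 31.1-fold higher. Bladder epithelium also expresses several of the genes in this list, and their values moved in the same libraries as the uroplakins.

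**Figure D2:**
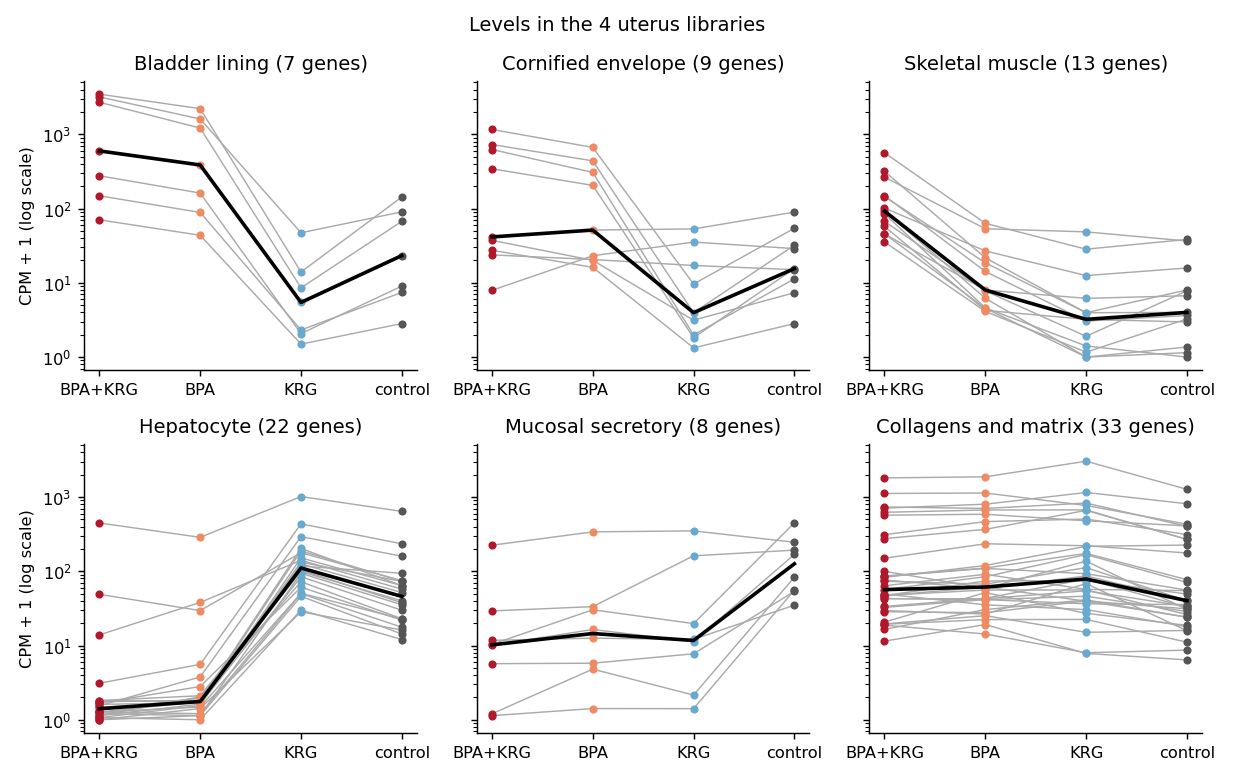
Each panel shows a gene list, with the 4 uterus libraries on the x axis and CPM + 1 on a log y axis. Thin lines are genes and the thick line is the list's median. Bladder lining and cornified genes are high with BPA and in the combined library, skeletal muscle genes in the combined library, hepatocyte genes in the KRG and control libraries, and most mucosal secretory genes in control. The hepatocyte list was made after values were seen.

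Skeletal muscle genes set the combined library apart from all 3 others. All 13 listed genes encode proteins of striated muscle, most of them contractile or calcium-handling. All were higher in the combined library and highest there, with a median log2 ratio of 4.27 against 0.76 with BPA and -0.25 with KRG. Their CPM summed to 1962 in the combined library, 225 with BPA, 103 with KRG and 118 in control. Several passed the expression limit only through the combined library. Myh2, for example, was at 34.6 CPM there, 3.12 with BPA, 0.165 with KRG and 2.27 in control. For such genes the higher call was largely set in advance by the limit. Tnnc2, the fast muscle troponin C, was at 317 CPM in the combined library, 20.7 with BPA, 2.96 with KRG and 7.02 in control, 45.2-fold higher (36.9 to 55.9). Pvalb, a calcium buffer of fast fibres, was at 84.1 CPM in the combined library and at 0 counts in control, at least 383-fold higher against a floor of 3 counts in the control library.

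Myh4, the fastest myosin heavy chain, was at 91.5 CPM in the combined library, 5.20 with BPA, 0 with KRG and 0.146 in control. Mylpf, a light chain of fast myosin, was at 148, 13.2, 2.06 and 2.63 CPM in the same groups. Every one of the 13 lay at least 1 above the sum, with a median deviation of 3.64. In liver the same list summed to 2.56 CPM in the combined library, 5.16 with BPA, 566 with KRG and 200.5 in control, so that 7 of 7 members measured there were lower in the combined library (against 1.49% of all liver genes). The muscle genes therefore stood high in different treatment groups in the 2 tissues. Whether adjoining muscle entered these libraries was not tested.

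Smooth muscle genes, which the uterine wall expresses but which are not particular to it, differed far less. Of 19 genes, 3 were higher and none lower, with a median log2 ratio of 0.27. Des, the intermediate filament desmin, which striated muscle also makes, was at 1034 CPM in the combined library, 461 with BPA, 474 with KRG and 345 in control. Actg2, the enteric smooth muscle actin, was at 111 CPM in the combined library, 102 with BPA, 108 with KRG and 48.3 in control, so that control was the low library. Synm, an intermediate filament protein, was 2.41-fold higher.

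Transcripts of plasma proteins and liver enzymes were lower in the combined library. In a list of 26 hepatocyte genes made after values were seen, 22 were measured, and 20 of those were lower and none higher, with a median log2 ratio of -4.45 against -4.23 with BPA and 1.29 with KRG. Alb, serum albumin, was at 2.11 CPM in the combined library, 4.57 with BPA, 434 with KRG and 234 in control, 111-fold lower (77.9 to 163). Ahsg, the plasma carrier fetuin-A, was at 0.544 CPM in the combined library, 2.77 with BPA, 292 with KRG and 159 in control. The 2 libraries with BPA were low and the 2 without it were high.

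As a percentage of the level in the liver library of the same treatment, the hepatocyte genes had a median of 0.00775% in the combined uterus library, 0.0211% with BPA, 3.16% with KRG and 1.34% in control. In the combined library 6 of the 26 genes were at 0 counts, against none in control. Trf, transferrin, which other tissues also make, was at 447 CPM in the combined library and 641 CPM in control. Together the 26 genes summed to 517 CPM in the combined library, 370 with BPA, 3711 with KRG and 1851 in control. Without genes at least 10 times as abundant in liver as in uterus, an alternative chosen after seeing the data, 494 genes were higher and 235 lower out of 9048, against 498 and 313 with them. Whether liver RNA entered the libraries was not tested.

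Most secretory genes of mucosal epithelium were low in the treated libraries. Of 8 measured genes 7 were lower in the combined library and none higher, with a median log2 ratio of -3.66, close to the -3.29 of BPA and the -3.35 of KRG. The combined library was the lowest of the 4 for all 8. Muc5b, a gel-forming mucin, was at 9.38 CPM in the combined library, 29.3 with BPA, 18.8 with KRG and 448 in control, 47.8-fold lower (40.3 to 57.0). Tff1, a trefoil peptide secreted with mucus, was at 0.136 CPM in the combined library, 0.416 with BPA, 0.411 with KRG and 54.7 in control. Agr2, which folds mucins, was 18.6-fold lower. Gp2, a membrane glycoprotein of secretory granules, was 403-fold lower on 3 counts in the combined library (137 to 1956).

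Pigr and Clca1, chosen after their values were seen, had another order. Pigr, the transporter of secreted antibodies, was at 28.2 CPM in the combined library, 32.4 with BPA, 161 with KRG and 192 in control, low in the libraries with BPA. Clca1, a secreted protein of mucus, was at 223 CPM in the combined library, 339 with BPA, 349 with KRG and 245 in control, and was not called.

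The sum for this list had a median of -6.64, and 6 of the 8 genes lay at least 1 above it. The combined ratio cannot fall below a floor set by the control level and the pseudocount of 1 CPM. For Gp2 and Tff1, with sums of -9.38 and -10.60, that floor lies above the sum even at 0 counts. Their place above the sum was therefore fixed in advance. For Tff1 the sum was -10.60 and the combined ratio -5.62, with 2 counts in the combined library. Itln1, an intelectin of mucus-secreting cells, was at 17.5 CPM in the combined library, 137 with BPA, 55.1 with KRG and 1605 in control. Wfdc18, a whey acidic protein family member, was at 1.36, 4.43, 0.658 and 83.9 CPM in the same groups. For Itln1 and Wfdc18 the control was the high library.

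Estrogen-induced uterine genes were lower more often than higher. Of 14 measured genes 7 were lower and 2 higher, with a median log2 ratio of -0.97 against -0.60 with BPA and -0.19 with KRG, and the combined library was the lowest of the 4 for 10. Ltf, lactoferrin, a long-used uterine marker of estrogen, was at 82.6 CPM in the combined library, 116 with BPA, 226 with KRG and 793 in control, 9.61-fold lower (9.05 to 10.2). Greb1, a cofactor of the estrogen receptor, was at 8.09 CPM in the combined library, 15.03 with BPA, 30.1 with KRG and 34.1 in control. Ramp3, a subunit of adrenomedullin receptors, was at 14.8, 31.9, 28.1 and 84.2 CPM in the same groups.

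All 3 of these genes were highest in control and lowest in the combined library. Aqp5, a water channel of the glands, was 3.76-fold lower. The 2 higher members, Cdkn1a, a cell cycle inhibitor, and Wnt4, a stromal WNT ligand, were chosen after their values were seen and were at 27.8 and 40.7 CPM in the combined library and at 7.75 and 18.3 CPM in control. The median deviation of the list from the sum was 0.07, with 2 genes at least 1 above the sum and 1 at least 1 below it. These were Ltf at 1.32 and Wnt4 at 1.02 above, and C3, a complement protein chosen after its value was seen, with a deviation of -1.32.

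The receptors for estrogen and progesterone were lower. Esr1, the main estrogen receptor of the uterus, was at 89.0 CPM in the combined library, 145 with BPA, 160 with KRG and 190 in control, 2.14-fold lower (2.00 to 2.29). Pgr, the progesterone receptor and itself an estrogen target, was at 49.6 CPM in the combined library, 71.5 with BPA, 84.3 with KRG and 119 in control, 2.39-fold lower (2.19 to 2.62). For both genes the combined library was lowest, the single treatments lay between, and the deviation from the sum was -0.45 and -0.03.

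Gland markers were measured for 5 genes, of which 2 were lower. Foxa2, a transcription factor of uterine glands, was at 16.9 CPM in the combined library, 16.5 with BPA, 44.2 with KRG and 61.3 in control. Cxcl15, a chemokine of glandular epithelium, was at 6.46 CPM in the combined library, 19.7 with BPA, 15.7 with KRG and 37.6 in control.

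**Figure D3:**
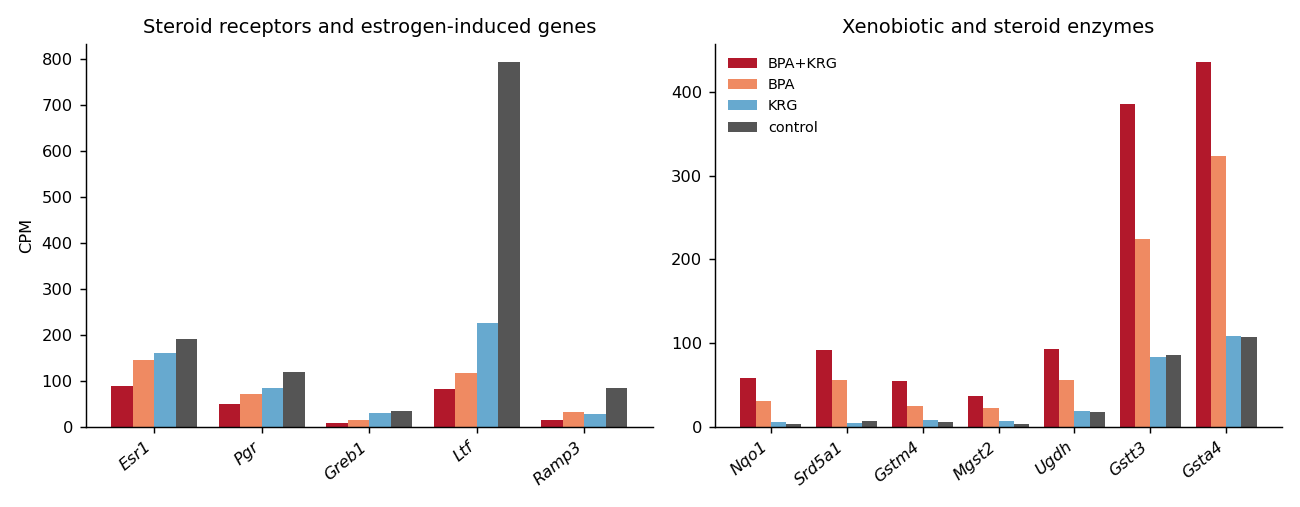
Bars show CPM of single genes in the 4 uterus libraries, steroid receptors and estrogen-induced genes on the left and enzymes on the right, on linear axes of different range. Esr1, Pgr, Greb1, Ltf and Ramp3 are lowest in the combined library and highest in control, and the enzymes are highest in the combined library, followed by BPA. Each bar is 1 library, so there is no error bar.

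Among steroid-converting enzymes 2 of 10 were higher and 1 lower. Srd5a1, a steroid 5-alpha-reductase, was at 91.9 CPM in the combined library, 56.2 with BPA, 4.44 with KRG and 6.29 in control, 14.6-fold higher (11.8 to 18.4). The order of the libraries for Srd5a1 was that of the uroplakins, and the part of bladder or other epithelium in its level was not tested. Akr1c14, a hydroxysteroid dehydrogenase, was at 4.08 CPM in the combined library, 11.4 with BPA, 20.1 with KRG and 29.8 in control. Akr1c19, of the same family, was 2.45-fold higher in the combined library, a call that was lost with a pseudocount of 5 CPM.

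Targets of NRF2, the transcription factor that answers electrophiles and oxidants, were higher in 9 of 26 measured genes (against 5.41% of all genes) and lower in 1, with a median log2 ratio of 0.62 against 0.0024 with BPA and 0.13 with KRG. Nqo1, a quinone reductase, was at 58.1 CPM in the combined library, 31.0 with BPA, 5.43 with KRG and 3.58 in control, 16.2-fold higher (12.2 to 22.1). Gstm1, a glutathione transferase, was at 2556 CPM in the combined library, 1528 with BPA, 97.97 with KRG and 139.8 in control, 18.3-fold higher (17.5 to 19.1). Gsta4, which conjugates lipid aldehydes, was at 436, 324, 108 and 107 CPM in the same groups.

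These 3 genes were highest in the combined library, next with BPA, and Nqo1 and Gsta4 lay within 1 of their sums. Slc7a11, the cystine transporter, was the lower member, at 6.32 CPM in the combined library, 8.94 with BPA, 14.7 with KRG and 29.7 in control. Conjugating enzymes were higher in 5 of 16 and lower in 2. Mgst2, a microsomal glutathione transferase, was at 37.2 CPM in the combined library, 22.5 with BPA, 7.07 with KRG and 3.36 in control. Gstm4 and Gstt3, glutathione transferases, and Ugdh, which makes the sugar donor for glucuronidation, were 8.86-fold, 4.48-fold and 5.28-fold higher. Like the uroplakins, these 4 enzymes and Nqo1, Gstm1 and Gsta4 were highest in the combined library and next with BPA. The part of bladder or other epithelium in their levels was not tested.

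Further genes had ratios among the 15 largest. Gjb6, a gap junction connexin, was at 239 CPM in the combined library, 111 with BPA, 3.21 with KRG and 6.87 in control. Fmo5, a flavin monooxygenase, was at 919.5, 535, 26.7 and 31.5 CPM in the same groups, and Cyp4f15, a fatty acid hydroxylase, at 71.3, 30.5, 1.15 and 1.53 CPM. Dnmt3l, a cofactor of DNA methylation in germ cells, was at 68.1, 33.9, 1.15 and 1.46 CPM. All 4 were high in the libraries with BPA and were 29.2-fold to 46.6-fold higher in the combined library than in control. Their order was that of the uroplakins, and the part of bladder or other epithelium in their levels was not tested. A930016O22Rik was at 91.9 CPM in the combined library and 1.46 in control, but with BPA at 11.2 CPM its order was that of the skeletal muscle genes.

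Signalling genes showed single members with large differences. Shh, the hedgehog ligand, was at 34.2 CPM in the combined library, 17.9 with BPA, 0 with KRG and 0.365 in control, on 5 counts in control. Gli1, a transcriptional target of hedgehog signalling, was at 34.3 CPM in the combined library, 51.1 with BPA, 29.5 with KRG and 78.9 in control. Igfbp2, which binds insulin-like growth factors, was at 383 CPM in the combined library, 167 with BPA, 25.1 with KRG and 15.2 in control, and was the 1 member of 10 in the IGF list that was called. Aqp3, a water and glycerol channel, was at 86.4, 40.5, 0.658 and 3.07 CPM in the same groups, and Uchl1, a neuronal deubiquitinase, at 261, 212, 4.61 and 21.2 CPM. Shh, Aqp3 and Uchl1 had the order of the uroplakins, and the part of bladder or other epithelium in their levels was not tested.

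In the WNT list 4 of 23 genes were higher and 7 lower. Wnt2 was at 45.0 CPM in the combined library, 42.0 with BPA, 5.59 with KRG and 6.58 in control, and Wnt7b at 92.2, 45.0, 18.6 and 24.3 CPM. Wnt6 was at 6.26 CPM in the combined library, 22.1 with BPA, 9.21 with KRG and 20.5 in control, and Wnt16 was 3.04-fold lower. The ligands thus differed in both directions. Of 13 TGF-beta and BMP genes 2 were higher and 1 lower, counts too small to set apart from the 5.41% and 3.4% over all genes, with Bmp2 and Bmp7, ligands of that family, 3.31-fold and 2.98-fold higher and Ltbp1, which anchors latent TGF-beta in the matrix, 2.43-fold lower.

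Collagens and other matrix genes lay mostly below the sum. Of 33 measured genes 5 were higher and 1 lower in the combined library, and the median log2 ratio was 0.48 against 0.58 with BPA and 0.73 with KRG. Control was the lowest of the 4 libraries for 22 of the 33, and 18 lay at least 1 below the sum, whose median was 1.67. Fbn1, the microfibril protein fibrillin-1, was at 98.9 CPM in the combined library, 58.3 with BPA, 136 with KRG and 29.6 in control. Col1a2, a chain of type I collagen, was at 1117 CPM in the combined library, 1133 with BPA, 769 with KRG and 429 in control. Eln, elastin, was at 48.4, 34.4, 29.4 and 17.0 CPM in the same groups.

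For these 3 genes the treated libraries were all above control. Fbn1 lay below its sum with a deviation of -1.41, while Col1a2 and Eln lay within 1 of theirs, at -0.86 and -0.28. Postn, periostin, was the lower member at 81.9 CPM in the combined library, 119 with BPA, 216 with KRG and 225 in control. Among matrix proteases and inhibitors 2 of 15 were higher and 1 lower. Mmp12, the macrophage elastase, was at 105 CPM in the combined library, 17.8 with BPA, 15.5 with KRG and 34.1 in control, 3.58 above its sum. Fibroblast markers were higher in 1 of 14, Pi16, at 116 CPM in the combined library and 57.2 in control, a call that was lost with total count scaling and with a pseudocount of 5 CPM. None of 9 endothelial genes was called.

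**Figure D4:**
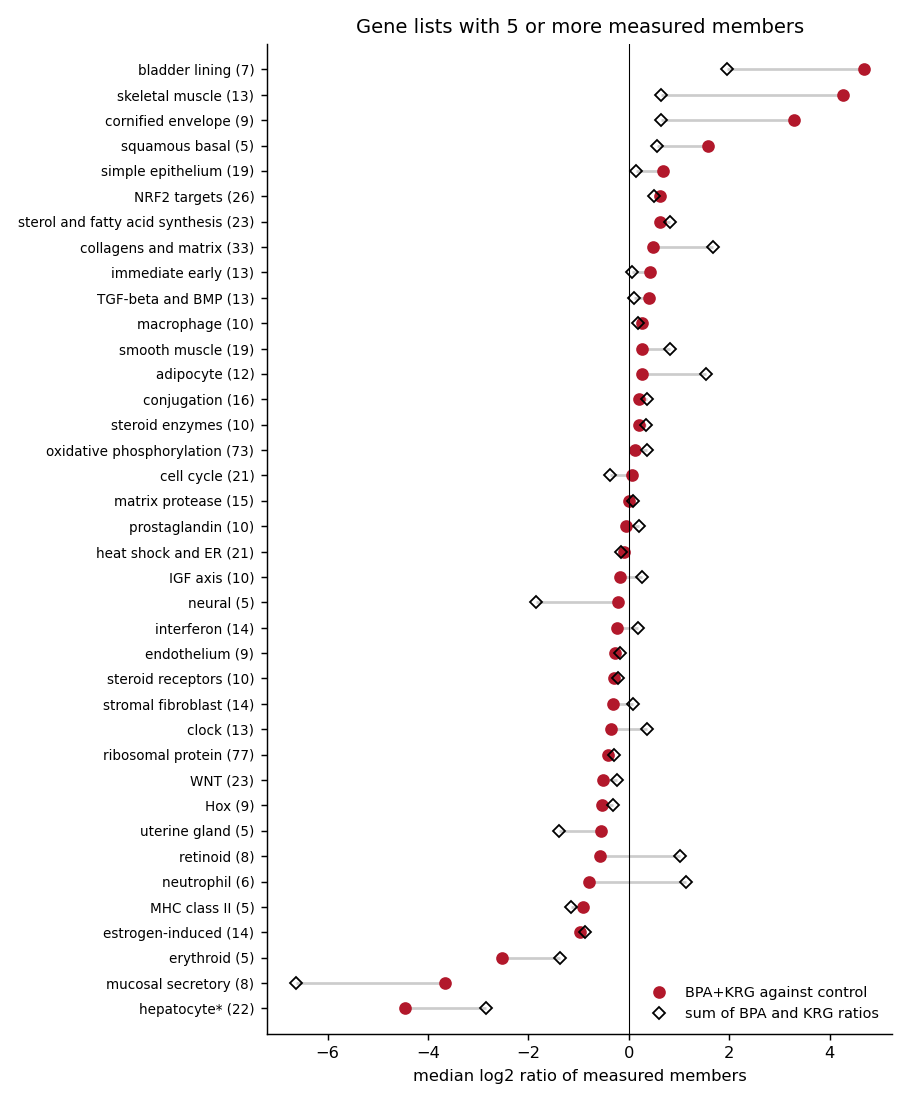
For each list with at least 5 measured genes (number in brackets), the filled circle is the median log2 ratio of combined to control and the open diamond the median of the sums of the single ratios. Bladder lining, skeletal muscle and cornified genes have circles far to the right of their diamonds, as do mucosal secretory genes at lower ratios, and collagens, adipocyte, neutrophil and retinoid genes have circles to the left. The asterisk marks a list made after values were seen.

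Adipocyte genes differed less than 2-fold between the combined library and control, in both directions. None of 12 was called, with a median log2 ratio of 0.26 against -0.25 with BPA and 1.86 with KRG, and 11 lay at least 1 below the sum. Their CPM summed to 6602 in the combined library, 6399 with BPA, 18487 with KRG and 6800 in control. Plin1, the coat protein of fat droplets, was at 82.0 CPM in the combined library, 52.3 with BPA, 209 with KRG and 48.6 in control, and Cfd, the secreted protease adipsin, at 1484 CPM in the combined library, 2249 with BPA, 3805 with KRG and 2745 in control.

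Most measured immune cell genes were not called. Of 6 neutrophil genes 2 were lower, Ltf and Lcn2, both of which uterine epithelium also makes, and the other 4 were not called. S100a8, an alarmin of neutrophils, was at 105 CPM in the combined library, 93.9 with BPA, 737 with KRG and 194 in control, and S100a9, its partner, was at 59.4, 62.6, 394 and 97.1 CPM in the same groups. Neither passed 2-fold, and KRG alone was the high library for both. Of 10 macrophage genes 2 were higher, with Cd68, a lysosomal protein, at 38.8 CPM in the combined library, 15.4 with BPA, 9.87 with KRG and 12.6 in control, and Lyz2, lysozyme, 2.44-fold higher. The other 8 were not called, some of them with ratios below 0, and the list's median log2 ratio was 0.27.

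Among 5 MHC class II genes 2 were lower, Cd74, the invariant chain, by 2.62-fold and H2-Ab1 by 2.34-fold. H2-DMb1, a chaperone that loads peptide on class II molecules, had the largest positive deviation of all genes at 6.02. It was at 54.8 CPM in the combined library, 7.27 with BPA, 8.47 with KRG and 90.0 in control, low in both single treatments and within 2-fold between combined and control. In liver it was at 12.9 CPM in the combined library, 7.54 with BPA, 17.5 with KRG and 0.512 in control. Of 14 interferon-stimulated genes 1 was lower, Ifit3, at 11.9 CPM in the combined library, 34.2 with BPA, 9.79 with KRG and 32.6 in control. That count is too small to set apart from the 3.4% over all genes.

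Erythroid genes were lower in 5 of 5 measured. Hba-a1, an alpha globin, was at 468 CPM in the combined library, 1354 with BPA, 2364 with KRG and 2878 in control, 6.15-fold lower (5.99 to 6.31), and Hbb-bs, a beta globin, was at 195, 461, 884 and 1134 CPM in the same groups. The combined library was lowest for all 5. In liver 3 of 5 were also lower (against 1.49% of all liver genes), with Hba-a1 at 981 CPM in the combined library, 4595 with BPA, 2966 with KRG and 2014 in control. Globin copies are near-identical (199 of the last 200 bases for Hba-a1 and Hba-a2), and the share of blood in each library was not tested.

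Lists of general cell functions differed in their calls. None of 77 ribosomal protein genes and none of 73 oxidative phosphorylation genes was called, although the ribosomal genes had a median log2 ratio of -0.42 and were lowest in the combined library for 54 of 77. Rpl13a, a protein of the large subunit, was at 2364 CPM in the combined library, 3202 with BPA, 4255 with KRG and 4496 in control. Of 21 cell cycle genes 1 was higher and 2 lower, Stmn1, a microtubule regulator, at 109 CPM in the combined library against 31.4 in control, and the replication helicase subunits Mcm3 and Mcm6, whose calls were lost with a pseudocount of 5 CPM. Of 13 immediate early genes 3 were higher (against 5.41% of all genes), Atf3 at 26.6 CPM in the combined library, 6.65 with BPA, 11.3 with KRG and 3.801 in control, with Dusp1 and Junb 2.36-fold and 2.32-fold higher.

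Sterol and fatty acid synthesis genes were higher in 8 of 23 (against 5.41% of all genes) and lower in none, with a median log2 ratio of 0.61. Elovl6, a fatty acid elongase, was at 74.5 CPM in the combined library, 48.6 with BPA, 32.6 with KRG and 22.6 in control, 3.30-fold higher (2.90 to 3.75). Msmo1 and Fdps, enzymes of cholesterol synthesis, were 2.71-fold and 2.57-fold higher. Retinoid genes were higher in 2 of 8, Cyp26b1, which degrades retinoic acid, and Dhrs3, a retinal reductase, and lower in 2, Rbp4, the plasma retinol carrier that liver also makes, and Rdh10, which makes retinal and whose call was lost with a pseudocount of 5 CPM. Among 10 prostaglandin genes Ptgfr, the receptor for prostaglandin F, was lower at 7.68 CPM in the combined library, 22.9 with BPA, 16.7 with KRG and 24.9 in control.

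The genes furthest below the sum were mainly serum amyloid genes and copies of a region of chromosome 4. The serum amyloid genes Saa1 and Saa2, acute phase proteins, were below 1.2 CPM in all but the KRG library, with Saa2 at 0.136 CPM in the combined library, 0.901 with BPA, 88.1 with KRG and 0.292 in control, a deviation of -6.85 from the sum. Saa1 was at 0.952, 0.693, 92.1 and 1.17 CPM in the same groups, with a deviation of -5.22. KRG alone was thus the high library for both. It was also the uterus library with the highest hepatocyte transcript level, at a median of 3.16% of liver against 0.00775% in the combined library. In liver, Saa1 was at 1076 CPM in the combined library, 70.5 with BPA, 838 with KRG and 44.7 in control. The part of liver RNA in the uterus values of Saa1 and Saa2 was not tested. Saa3, a form made outside the liver, was at 10.1 CPM in the combined library, 22.0 with BPA, 15.4 with KRG and 2.78 in control. Pnpla3, a lipid droplet hydrolase, was at 61.1, 28.1, 151 and 4.90 CPM in the same groups, with a deviation of -3.59, and Prap1, a secreted acidic protein, deviated by -3.07.

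The other genes lie in a duplicated region of chromosome 4 that holds copies of the interleukin-11 receptor alpha gene and of the chemokine Ccl27. Il11ra2 was at 9.72 CPM in the combined library, 170.4 with BPA, 426 with KRG and 318 in control, 32.7-fold lower (27.7 to 38.9), with a deviation of -4.42. Gm13305, Gm2002, Ccl27b and Gm13306 were 33.8-fold, 33.8-fold, 37.6-fold and 42.2-fold lower, with deviations of -4.48 to -4.29. Ccl27a, the skin-homing chemokine, went the opposite way and was at 194 CPM in the combined library, 10.2 with BPA, 25.01 with KRG and 22.1 in control, 8.78-fold higher (7.80 to 9.91). Il11ra1, the receptor subunit for interleukin-11 that decidualization in the mouse needs, was at 344 CPM in the combined library, 70.6 with BPA, 132 with KRG and 137 in control. These last 2 genes were added to the group after their values were seen.

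The promoter windows are shown because they differ little or not at all between copies (RefSeq, GRCm38.p6), with Il11ra2 at chr4:42665764-42666012 on the minus strand, Ccl27a at chr4:41774239-41774426 on the minus strand and Ccl27b at chr4:42650374-42650562 on the plus strand. Capitals mark bases that differ between Ccl27a and Ccl27b.

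Il11ra2: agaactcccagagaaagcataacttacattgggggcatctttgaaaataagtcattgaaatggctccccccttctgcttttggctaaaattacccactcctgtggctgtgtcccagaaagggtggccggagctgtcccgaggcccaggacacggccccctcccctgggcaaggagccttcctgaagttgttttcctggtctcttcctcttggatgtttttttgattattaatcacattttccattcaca

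Ccl27a: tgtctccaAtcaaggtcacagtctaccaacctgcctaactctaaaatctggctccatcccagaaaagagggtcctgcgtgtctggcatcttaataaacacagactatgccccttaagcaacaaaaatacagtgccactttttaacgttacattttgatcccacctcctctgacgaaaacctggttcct

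Ccl27b: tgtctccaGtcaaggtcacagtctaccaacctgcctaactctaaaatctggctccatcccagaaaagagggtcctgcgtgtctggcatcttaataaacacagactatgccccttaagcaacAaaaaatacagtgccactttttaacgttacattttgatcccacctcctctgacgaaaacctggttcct

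The Il11ra2 window and that of Gm13305 at chr4:42168605-42168853 are identical over 249 bases, and the Ccl27a and Ccl27b windows share 187 of 189 aligned positions. At the 3′ end, which these libraries read, 195 of the last 200 bases of the best-matching transcripts of Ccl27a and Ccl27b are identical. How reads with several matches were counted is not given in the sources used here, so the levels of single copies are uncertain. For the receptor copies, the annotated transcript ends had 109 of 200 bases identical for Il11ra2 and Gm13305 and 104 of 200 for Il11ra1 and Il11ra2. By the same alignment Upk1a and Upk1b, which are different genes, had 111 of 200 identical. The receptor values therefore do not show whether reads of these copies can be separated. Il11ra2 and Gm13305 had nearly equal uterus counts, 143 and 135 in the combined library and 2460 and 2404 with BPA. With KRG they had 5177 and 5123, and in control 4346 and 4242. Ccl27b and Gm13306 had 45 and 41, 825 and 822, 1913 and 1893, and 1574 and 1609 counts in the same groups. Whether copies share reads was not tested, so these genes cannot be taken as separate signals. In liver the combined and KRG libraries lay together and the BPA and control libraries lay together. Ccl27a was at 53.0 CPM in the combined liver library, 10.5 with BPA, 46.5 with KRG and 10.4 in control, and Il11ra2 was at 84.6, 186, 91.4 and 204 CPM in the same groups. CD-1 mice are outbred, and treatment and animal cannot be told apart with 1 library per group.

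**Figure D5:**
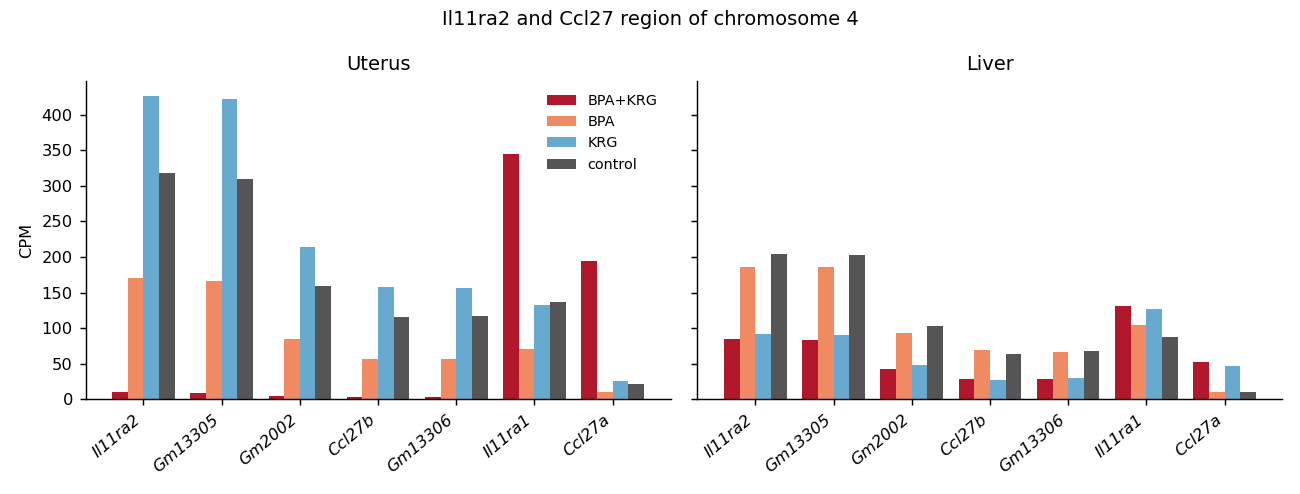
Bars show CPM of 7 genes of the duplicated region in uterus (left) and liver (right) on a shared linear axis, 1 library per bar. In uterus the combined library is near 0 for the first 5 genes and highest for Il11ra1 and Ccl27a. In liver the combined library resembles KRG, and BPA resembles control.

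The same contrast in liver, which shares no library with uterus, gave 69 higher (1.03%) and 100 lower (1.49%) of 6705 genes. Of 224 genes higher in uterus and measured in both tissues, 9 (4.02%) were higher and 14 (6.25%) lower in liver, beside 0.670% and 0.888% of all 5966 genes measured in both. The 14 include all 7 skeletal muscle genes measured in liver. Of 132 genes lower in uterus, 11 (8.33%) were lower in liver and 1 was higher. Gstm1, Gstm4, Gstt3 and Nqo1 were higher in both tissues. Nqo1 in liver was at 19.5 CPM in the combined library, 13.2 with BPA, 9.34 with KRG and 4.61 in control, and Gstm1 at 1281, 1762, 536 and 465 CPM in the same groups. The chromosome 4 copies and globins account for 9 of the 20 genes that moved the same way in both tissues, and Ccl27a and A1bg are also among them.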

How the data were processed

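For each of 8 QuantSeq 3′ end libraries the authors deposited a file of unnormalized read counts by gene symbol; the libraries were made from 500 ng of total RNA, per the labels' protocols. Bowtie2, edgeR and mm10 appear in the submitters' processing notes, with no version and no statement of their use. Which program counted reads, and how it treated strand and multiple matches, is not given in the sources used here.

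The 4 libraries of a tissue were scaled together with the TMM method of edgeR 4.0.16 (R 4.3.3) and expressed as CPM. Log2 ratios use CPM plus a pseudocount of 1, so that differences of weakly expressed genes come out too small, and folds are ratios of CPM without it. A gene was used in a tissue when its mean there reached 10 CPM. The deviation is the combined ratio minus the sum of the BPA and KRG ratios. With 1 library per group nothing was tested. Where a count was 0, a floor of 3 counts replaced it in the fold. Reads carry no molecular identifiers, so intervals cover counting error only. The ratio calculation was checked on simulated data.

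The groups compared, the gene lists and the motifs were chosen with earlier results of these data known. Named genes are the 15 largest and 15 smallest ratios, the 10 largest and 10 smallest deviations, up to 4 members per list with the largest ratio, those at the expression limit, and Esr1, Pgr, Ltf, Greb1, Nqo1 and Srd5a1. The text marks other genes as picked with their values in view, which also holds for the hepatocyte, gasdermin C and chromosome 4 groups. Gene coordinates and transcript ends are from GENCODE M21 and promoter windows from RefSeq (GRCm38.p6), assemblies that share the mm10 coordinates. Some results for single genes are left out of the text. The alternatives tried were size factors from DESeq2 1.42.0, total counts with and without Rn45s, other expression limits and other pseudocounts.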

Additional observations from a re-analysis of the deposited data

Results flagged for a closer look

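The results below are named genes whose ratio for one contrast pointed in opposite directions, at least 2-fold each way, in 2 pairs of libraries. Every pair holds 1 library per group, so none of these differences was tested. Only the 213 named genes were searched, and no share over all measured genes is given. Some were named for a large deviation from the sum, which equals the difference of the 2 ratios compared for KRG or for BPA. Others were named for a large ratio of combined to control, and the combined library enters every comparison below. Which genes appear here was thus partly set by that choice.

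For KRG, the ratio of combined to BPA (KRG given with BPA) was set beside that of KRG to control (KRG given alone). With BPA, the log2 ratios for KRG were 1.15 for Upk3a, 1.02 for Ivl and 1.08 for Aqp3, and without BPA they were -2.97, -2.51 and -1.30 for the same genes. The skeletal muscle genes Tnnc2, Mb and Myh2 were at 3.87, 3.11 and 3.11 with BPA and at -1.02, -2.03 and -1.49 without BPA, while the median of the 13 muscle genes without BPA was -0.25. For Mmp12 the values were 2.49 with BPA and -1.09 without BPA. H2-DMb1 was at 2.75 with BPA and -3.26 without BPA. Cyp2e1 and Saa3 pointed the other way, at -1.45 and -1.04 with BPA and 1.29 and 2.12 without BPA.

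For BPA, the ratio of combined to KRG (BPA given with KRG) was set beside that of BPA to control (BPA given alone). With KRG, the log2 ratios for BPA were 2.91 for Ccl27a, 2.56 for H2-DMb1 and 1.18 for Prph, a neuronal intermediate filament, and without KRG they were -1.05, -3.46 and -1.54. Pnpla3 and Prap1 were at -1.29 and -1.10 with KRG and at 2.30 and 1.97 without KRG.

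Between tissues, the ratio of combined to control was positive in uterus and negative in liver for Akr1c19 (1.15 in uterus), Ckm (5.18), Des (1.58), Hspa1b (1.16), Igfbp2 (4.57), Mb (3.11), Mylpf (5.36) and Tnnc2 (5.31). In liver the same genes were at -1.46, -3.89, -1.18, -1.91, -2.19, -4.40, -2.77 and -5.54. Lcn2 was at -1.37 in uterus and 3.24 in liver. The part of skeletal muscle RNA in these values was not tested.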

How the results depend on the processing

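The counts of genes moved most with the expression limit. With a mean of at least 1 CPM, 933 genes were higher and 725 lower, 806 were genes above the sum by at least 1, and 961 were genes below the sum by at least 1. With no limit the counts were 997 higher and 783 lower, with 914 and 1087 above and below the sum by at least 1, because 18658 genes entered in place of 9198. The median of the basal squamous list turned to -0.66 with no limit, where 10 genes entered in place of 5. Total count scaling gave 469 higher and 337 lower, and a pseudocount of 5 CPM gave 405 higher and 238 lower. Under the scaling and pseudocount alternatives, no count of higher or lower genes moved by more than 1.5 times. Of 213 named genes, 11 changed their 2-fold call under at least 1 alternative, mostly with a pseudocount of 5 CPM. No paired analysis was possible because each group holds 1 library and the labels carry no replicate numbers. Depth limits the low end: Tff1 rested on 2 counts, Gp2 on 3 counts and Ahsg on 8 counts in the combined library, and Shh on 5 counts in control.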
